A study of Mus musculus with 24 samples.

Results

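The proteasome subunit genes were compared in bone marrow of WT and Nrf2-KO mice on the ground and after spaceflight. The members were the protein-coding genes whose symbols begin with Psma, Psmb, Psmc, Psmd or Psme and a digit, and 45 of the 54752 genes in the table met this rule, after 4 pseudogenes with such symbols had been left out. There were 6 male C57BL/6 mice in each of 4 groups. GC-WT mice were wild-type ground controls, FL-WT mice were wild-type mice that flew, GC-KO mice were ground controls without functional Nrf2, and FL-KO mice were Nrf2-KO mice that flew. The flight mice were 8 weeks old when they were shipped, 3 weeks before launch, stayed in space for 31 days and were sampled 2 days after landing. The cells of the right pelvis and tibia were frozen before RNA was isolated, and 1 library was made per mouse. Each sample is a mixture of all marrow cells. Flight samples were collected in the United States and ground samples in Japan, so flight and the place of collection cannot be told apart.

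The proteasome is the protease that degrades ubiquitin-tagged proteins in the cytosol and the nucleus. Its 20S core is a barrel of alpha and beta rings, and the proteolytic sites lie inside the beta rings. A 19S regulatory particle on either end of the barrel recognises ubiquitin chains, removes them and unfolds the substrate with a ring of ATPases. In cells of the immune system and after interferon signalling, the constitutive catalytic subunits are replaced by the immunoproteasome subunits Psmb8, Psmb9 and Psmb10, which favour peptides that fit MHC class I molecules. Nrf2 and the related factor Nrf1, encoded by Nfe2l1, are known to activate proteasome genes through the antioxidant response element (ARE) when cells meet oxidants or a blocked proteasome. Red cell precursors and developing lymphocytes of the bone marrow depend on this degradation during their maturation.

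In all, 4 comparisons were made, always given in this order. Flight was compared with ground in WT mice (FL-WT vs. GC-WT) and in KO mice (FL-KO vs. GC-KO), and KO was compared with WT on the ground (GC-KO vs. GC-WT) and in flight (FL-KO vs. FL-WT). Values of the 4 groups are given with WT before KO and ground before flight. Levels are in TPM, the share of a transcript per 1000000 transcripts, which takes the length of each gene into account and has the same sum in every library. The number of reads per library is unknown. Of the 12373 genes with a TPM above 1 in at least 1 library, 43 were members. Psma8, a testis subunit, lay between 0.11 and 0.48 TPM in the 24 mice, and Psmb11, the thymic catalytic subunit, between 0 and 0.01 TPM. The targeted gene Nfe2l2 was lower in every KO mouse than in any WT mouse of the same arm (exact two-sided permutation test, p = 0.00216, the smallest that 6 against 6 allows). Over the 12373 genes the median log2 fold change, on the log2(TPM + 1) scale, was -0.24, -0.29, -0.22 and -0.25 in the 4 comparisons, and the changes of the members are to be read against this shift. The 5 small RNAs, Rmrp, Rpph1, Rn7sk, Rn7s1 and Rn7s2, held 35.4% to 59.6% of TPM in single libraries. Fewer cells of a type and less RNA per cell cannot be told apart in these samples.

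All 43 tested members were detected in marrow, with group means from 1.86 to 96.2 TPM. Psmb3, a structural beta subunit, had the highest level, with a mean of 75.2 ± 11.6 TPM (SD, n = 6) in GC-WT mice. The alpha ring genes lay between 14.5 TPM for Psma2 and 50.9 TPM for Psma7 as means of GC-WT mice. The constitutive catalytic genes Psmb5, Psmb6 and Psmb7 had means of 37.0, 43.9 and 38.7 TPM in that group, and the immunoproteasome genes Psmb8, Psmb9 and Psmb10 had means of 23.3, 13.4 and 14.3 TPM. In the 19S particle, Psmd8 of the lid was the highest at 35.5 TPM, and the base had its highest genes in Psmd4, a ubiquitin receptor, at 31.7 TPM and Psmc3, an ATPase, at 31.0 TPM. Among the activators, which open the core without the 19S particle, Psme3 stood at 71.1 TPM and Psme4 at 8.16 TPM. The base assembly chaperones Psmd5, Psmd9 and Psmd10 had means of 4.56 to 6.72 TPM. Psmc3ip, whose symbol meets the rule although its product acts in meiotic recombination, had a mean of 2.07 TPM.

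**Figure D1:**
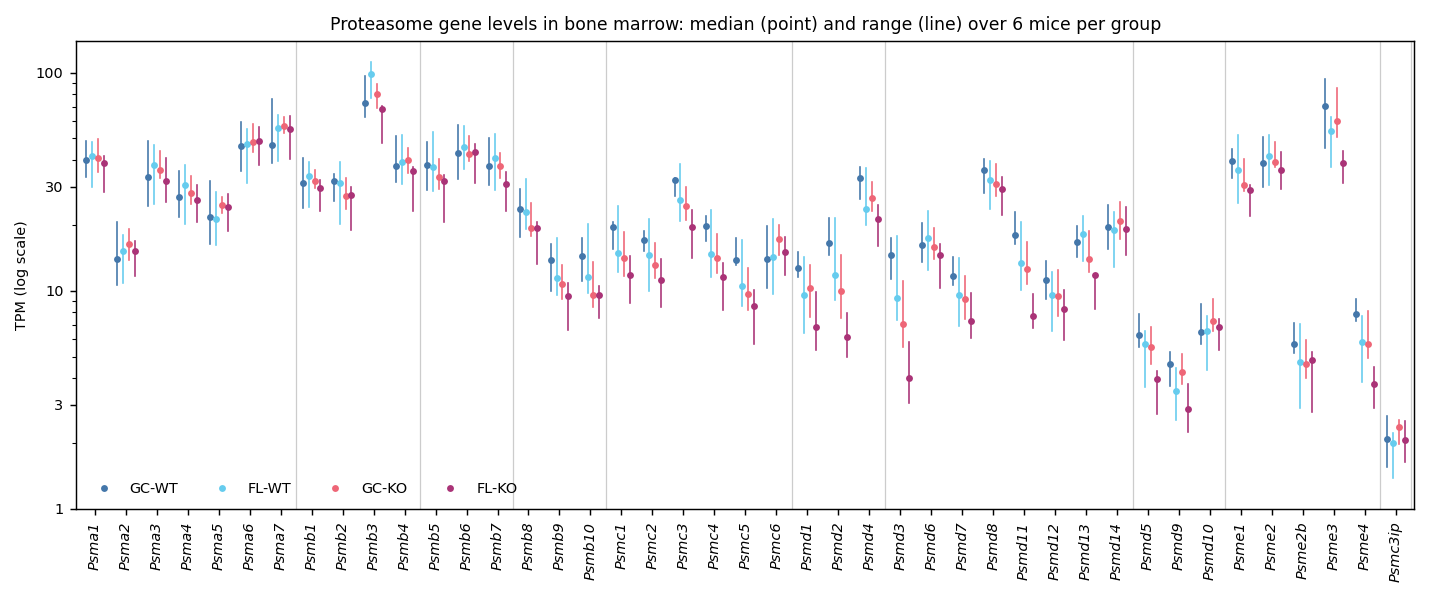
Level of each of the 43 tested members in the 4 groups, with TPM on a log axis, points for the median and lines for the range over 6 mice. Vertical lines separate the functional classes. Among the catalytic and structural 20S genes on the left, FL-KO lies below FL-WT for Psmb3 and below GC-WT for Psmb10, and Psmd3 has medians of 14.6 TPM for GC-WT and 3.995 TPM for FL-KO.

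To examine how many members changed, each comparison was tested with limma over all 12373 genes, and a gene was called at a Benjamini-Hochberg adjusted p under 0.1. After flight in WT mice, 6 of 43 members were lower and 1 was higher, where 39.0% and 0.994% of all tested genes were called lower and higher. After flight in KO mice, 14 members were lower and 0 higher, against 53.1% and 0.299% of all genes. In KO mice on the ground, 12 members were lower and 0 higher, against 42.9% and 3.13%. In KO mice in flight, 23 members were lower and 0 higher, against 47.2% and 1.91%. Thus the share of members called lower was below that of all genes in the first 3 comparisons and slightly above it in the last. A DEG also required a fold change of at least 2. Psmd3 in KO mice in flight was the single member DEG, where DEGs made up 1.0% of all genes after flight in WT mice, 2.13% after flight in KO mice, 3.17% in KO mice on the ground and 8.45% in KO mice in flight. The difference between the flight effects in the 2 genotypes passed for 0 of 43 members at an adjusted p under 0.1 in limma and for 0.0162% of all genes. At an unadjusted p under 0.05 in limma the flight effect was lower in Nrf2-KO mice for 3 members, namely Psmb3, Psmb7 and Psmd13. The share of all genes at this cut is not given, so these 3 are a description and no calls.

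The direction of the counts rested on how libraries were scaled. Under median-of-ratios scaling, which sets the median change of all genes near 0, 1 member was lower and 25 were higher after flight in WT mice, where 15.9% and 17.4% of all genes were called in these directions. The counts were 4 lower and 20 higher after flight in KO mice, against 21.6% and 18.1% of all genes. They were 4 lower and 23 higher in KO mice on the ground, against 27.8% and 29.8%. In KO mice in flight they were 4 lower and 19 higher, against 31.2% and 35.2%. A further fit, in which the dependence of the values on GC content and transcript length was taken out library by library, gave 1 lower and 17 higher after flight in WT mice, beside 14.9% and 17.2% of all genes. The same step gave 4 and 6 after flight in KO mice, beside 15.5% and 19.5%. It gave 7 and 12 in KO mice on the ground, beside 22.0% and 23.7%, and 9 and 7 in KO mice in flight, beside 23.8% and 30.5%. Members that rose relative to the median gene and members that fell relative to it were both present in these fits.

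Few genes of the 20S core changed at the deposited scale. Of the 14 tested genes of the alpha ring, the structural beta ring and the constitutive catalytic sites, 0 were lower and 1 was higher after flight in WT mice, and 0 were called in KO mice on the ground, where 39.0% and 42.9% of all genes were lower. Their median changes were 0.08 and 0.06, against -0.24 and -0.22 for all genes. After flight in KO mice and in KO mice in flight, 2 and 3 of the 14 were lower, against 53.1% and 47.2% of all genes, with median changes of -0.14 in each. With median-of-ratios scaling all 14 were higher after flight in WT mice and in KO mice on the ground, 9 after flight in KO mice and 10 in KO mice in flight, and none was lower. The shares of all genes called higher were 17.4%, 29.8%, 18.1% and 35.2% in the same order. After removal of the GC and length trend, 11, 3, 7 and 3 of them were higher in the 4 comparisons, against 17.2%, 19.5%, 23.7% and 30.5% of all genes, and 2 were lower in KO mice in flight.

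The alpha ring, which forms the gate of the barrel, contributed no call in any comparison at the deposited scale. Psma7 had its lowest, median and highest value at 38.4, 46.7 and 75.6 TPM in GC-WT mice, 39.2, 55.6 and 64.1 TPM in FL-WT mice, 52.8, 56.9 and 62.4 TPM in GC-KO mice and 40.2, 55.4 and 63.6 TPM in FL-KO mice. Psma5 lay at 16.4, 21.7 and 31.8 TPM in GC-WT mice, 16.3, 21.5 and 28.3 TPM in FL-WT mice, 22.8, 24.8 and 27.0 TPM in GC-KO mice and 18.8, 24.3 and 27.7 TPM in FL-KO mice. The 4 groups overlapped fully for both genes. Psma3 lay at 24.5, 33.4 and 48.4 TPM in GC-WT mice and at 25.0, 37.9 and 46.7 TPM in FL-WT mice, at 33.0, 35.9 and 43.9 TPM in GC-KO mice and at 25.4, 32.0 and 40.8 TPM in FL-KO mice. Its changes ranged from -0.21 in KO mice in flight to 0.15 after flight in WT mice, with a standard error of 0.15 each, and did not pass the test.

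Psmb3 of the beta ring stood apart from its neighbours. Its lowest, median and highest values were 62.4, 72.5 and 96.7 TPM in GC-WT mice, 76.5, 98.7 and 112.5 TPM in FL-WT mice, 69.0, 79.5 and 89.1 TPM in GC-KO mice and 47.4, 68.4 and 70.3 TPM in FL-KO mice. Every FL-KO mouse was below every FL-WT mouse, whereas the other groups overlapped. Psmb3 was higher after flight in WT mice where it rose by 0.35 on the log2 scale (SE 0.12, limma adjusted p = 0.0368), and it was the single member that was called higher there under all 5 scalings tried, which are the deposited TPM, median-of-ratios, quantile, without the small RNAs and without the GC and length trend. After flight in KO mice it changed by -0.29 (SE 0.12, limma adjusted p = 0.0571) at the deposited scale, but by 0.14 with median-of-ratios scaling, and the call was lost without FL-KO mouse 2 or GC-KO mouse 11 or 12, with changes of -0.27 to -0.21. It fell by 0.56 in KO mice in flight on the log2 scale (SE 0.12, limma adjusted p = 0.000582). The flight effects of the 2 genotypes differed by -0.64 ± 0.17 (SE), with an adjusted p of 0.516 in limma over all genes, and with an adjusted p of 0.0771 after removal of the GC and length trend.

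Among the constitutive catalytic genes, Psmb5 carries the chymotrypsin-like site, Psmb6 the caspase-like site and Psmb7 the trypsin-like site. Psmb5 lay at 28.9, 37.7 and 48.0 TPM in GC-WT mice, 28.6, 37.1 and 53.7 TPM in FL-WT mice, 29.3, 33.3 and 40.3 TPM in GC-KO mice and 20.6, 31.8 and 34.0 TPM in FL-KO mice. Psmb6 lay at 32.6, 43.03 and 57.6 TPM in GC-WT mice, 36.3, 45.5 and 57.1 TPM in FL-WT mice, 39.2, 42.5 and 51.3 TPM in GC-KO mice and 31.1, 43.2 and 47.2 TPM in FL-KO mice. Psmb7 lay at 30.6, 37.5 and 50.03 TPM in GC-WT mice, 28.9, 40.7 and 52.3 TPM in FL-WT mice, 33.0, 37.5 and 43.1 TPM in GC-KO mice and 23.4, 30.9 and 35.2 TPM in FL-KO mice. The groups overlapped for all 3 genes, with FL-KO mice at the low end for Psmb5 and Psmb7. In KO mice in flight, Psmb5 changed by -0.36 and Psmb7 by -0.41 (limma adjusted p = 0.0545 and 0.0117), which became 0.07 and 0.02 with median-of-ratios scaling. The call of Psmb5 was lost without FL-KO mouse 2 or FL-WT mouse 7 or 8, with changes of -0.29 to -0.26. Psmb6 changed by -0.13 in the same comparison and by 0.01 in KO mice on the ground and was not called at the deposited scale.

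Because Nrf2 is known to bind the ARE, the promoters of the members were searched for its core letters TGACNNNGC on both strands. RefSeq windows on GRCm38.p6 from 250 bases before to 50 bases after the start were at hand for 38 of 45 members, and those of Psma8, Psmb1, Psmb2, Psmb7, Psmc3, Psmd3 and Psmd7 were not read. The letters occurred in 6 of these 38 genes, or 15.8%, and in 14.0% of all 27025 genes. Shown are 3 of the 6, namely 2 catalytic genes and an ATPase of the base whose match lies outside annotated exons, to let the letters be read beside the levels. The matched letters are in capitals, and bases within GENCODE exons were left out. In Psmc6 the match lies on the other strand and is read in the reverse direction.
Psmb5 (chr14:54618023-54618245, minus strand): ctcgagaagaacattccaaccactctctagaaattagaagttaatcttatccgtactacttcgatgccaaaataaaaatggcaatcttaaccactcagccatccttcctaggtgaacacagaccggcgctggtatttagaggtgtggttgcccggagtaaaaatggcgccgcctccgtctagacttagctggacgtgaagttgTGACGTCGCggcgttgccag
Psmb6 (chr11:70525107-70525356, plus strand): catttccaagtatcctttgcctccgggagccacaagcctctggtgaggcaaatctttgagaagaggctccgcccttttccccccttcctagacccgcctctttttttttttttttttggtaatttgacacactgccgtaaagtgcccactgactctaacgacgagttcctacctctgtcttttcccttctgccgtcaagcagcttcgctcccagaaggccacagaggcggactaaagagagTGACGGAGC
Psmc6 (chr14:45329574-45329787, plus strand): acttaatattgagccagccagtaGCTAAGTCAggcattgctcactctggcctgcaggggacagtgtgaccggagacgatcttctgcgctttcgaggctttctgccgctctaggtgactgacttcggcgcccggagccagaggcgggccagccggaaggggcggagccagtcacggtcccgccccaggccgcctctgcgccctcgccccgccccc

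In KO mice on the ground the 6 members with the ARE letters changed by -0.09 for Psmb5, 0.01 for Psmb6, 0.23 for Psmc6, -0.22 for Psmd12, -0.06 for Psmd9 and -0.41 for Psme4, of which Psme4 alone was called (limma adjusted p = 0.0188). The interferon-stimulated response element, searched as GAAA, any 2 bases and GAAA again, occurred in 4 of the 38 members, or 10.53%, against 3.99% of all genes, and these were Psmb3, Psmd4, Psmd9 and Psme1. The CCAAT box occurred in 15 members, or 39.5%, against 41.1% of all genes. A match is a description of the letters and no evidence of binding.

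The immunoproteasome genes were called lower in KO mice in flight at the deposited scale, and Psmb10 alone on the ground, but none with median-of-ratios scaling. At the deposited scale 0 of 3 were called in either flight comparison, where 39.0% and 53.1% of all genes were lower. In KO mice on the ground 1 was lower and in flight all 3 were, against 42.9% and 47.2% of all genes. The 3 genes had median changes of -0.27 and -0.44 in these 2 comparisons of genotypes, against -0.22 and -0.25 for all genes. With median-of-ratios scaling the medians of the 3 were 0.06 and -0.03, and none of them was called. Psmb8 lay at 17.6, 23.7 and 29.3 TPM in GC-WT mice, 19.2, 23.1 and 32.7 TPM in FL-WT mice, 17.8, 19.4 and 25.4 TPM in GC-KO mice and 13.3, 19.5 and 20.8 TPM in FL-KO mice. Psmb9 lay at 9.94, 13.9 and 16.4 TPM in GC-WT mice, 9.60, 11.5 and 17.5 TPM in FL-WT mice, 9.22, 10.8 and 13.2 TPM in GC-KO mice and 6.61, 9.44 and 10.8 TPM in FL-KO mice. Psmb10 lay at 11.1, 14.4 and 17.5 TPM in GC-WT mice, 9.79, 11.6 and 20.3 TPM in FL-WT mice, 8.43, 9.60 and 13.5 TPM in GC-KO mice and 7.51, 9.56 and 10.53 TPM in FL-KO mice. The groups compared overlapped for all 3 genes, and for Psmb10 the FL-KO mice lay below all GC-WT mice. In KO mice in flight the log2 fold changes were -0.44 for Psmb8, -0.43 for Psmb9 and -0.45 for Psmb10 (limma adjusted p = 0.0156, 0.0188 and 0.0189). In KO mice on the ground, Psmb10 fell by 0.44 on the log2 scale (SE 0.15, limma adjusted p = 0.0263).

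A ratio of an immunoproteasome gene to the constitutive gene it replaces does not change with a factor common to the library. It can still carry a trend in transcript length or GC content. Psmb9 has 2884 nt and Psmb6 966 nt, and GC content is 56.5% for Psmb10 and 40.8% for Psmb7. With the GC and length trend removed, Psmb9 changed by 0.15 in KO mice on the ground. The 3 constitutive genes then changed by 0.04 to 0.19. The ratios were not tested after that step. Psmb8/Psmb5 had means of 0.631, 0.641, 0.600 and 0.601 in the 4 groups. Psmb9/Psmb6 was 0.307 ± 0.0435 (SD, n = 6) in GC-WT mice, 0.272 ± 0.0340 in FL-WT mice, 0.247 ± 0.0207 in GC-KO mice and 0.215 ± 0.0202 in FL-KO mice. Psmb10/Psmb7 was 0.372 ± 0.0467, 0.326 ± 0.0559, 0.271 ± 0.0449 and 0.309 ± 0.0213 in the same order. The ratios of Psmb9 and Psmb10 had thus lower means in KO than in WT mice on the ground, while that of Psmb8 differed little. The log2 ratio of Psmb9/Psmb6 differed by -0.30 ± 0.10 (SE) in KO mice on the ground (exact two-sided permutation test, p = 0.0130) and by -0.34 ± 0.09 in KO mice in flight (exact permutation test, p = 0.00866). That of Psmb10/Psmb7 differed by -0.46 ± 0.12 in KO mice on the ground (exact permutation test, p = 0.00866) and by -0.06 ± 0.11 in KO mice in flight (exact permutation test, p = 0.589). Adjusted over the 12 tests of ratios, the 3 lowest of these p-values were 0.0519. None passed 0.05, while these 3 were under the cut of 0.1 that was used for calls of genes. Psmb9/Psmb6 also differed by -0.21 ± 0.07 after flight in KO mice (exact permutation test, p = 0.0195, adjusted p = 0.0584). Differences of Psmb8/Psmb5 ranged from -0.09 to 0.02, and the lowest of their adjusted p-values was 0.240 in the exact permutation tests.

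**Figure D2:**
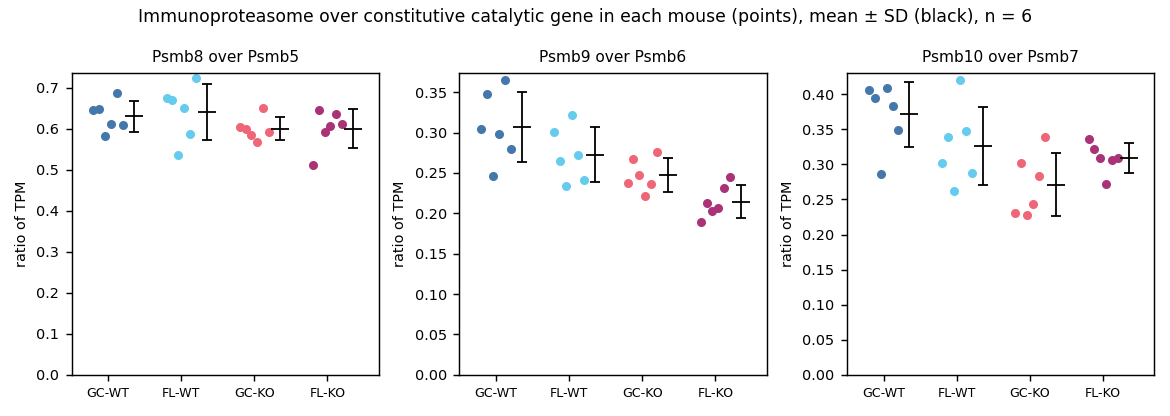
Ratio of the TPM of each immunoproteasome gene to that of its constitutive counterpart in each mouse, with the 4 groups on the horizontal axis, points for mice and black bars for the mean ± SD of 6 mice. Psmb9 over Psmb6 steps down from a mean of 0.307 for GC-WT to 0.215 for FL-KO, while Psmb8 over Psmb5 stays between 0.600 and 0.641.

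The genes that act with the immunoproteasome were measured beside it. Of 12 genes of MHC class I peptide loading, 3 were lower after flight in WT mice, 9 after flight in KO mice, 11 in KO mice on the ground and 10 in KO mice in flight, against 39.0%, 53.1%, 42.9% and 47.2% of all genes, and none was higher. Their median changes were -0.33, -0.47, -0.64 and -0.91, and with median-of-ratios scaling 0.02, -0.07, -0.29 and -0.48. Tap1 and Tap2 form the transporter of peptides into the endoplasmic reticulum, and Tapbp tethers it to empty MHC class I molecules. Tapbp had means of 34.4, 25.7, 16.0 and 6.22 TPM in the 4 groups, Tap1 of 11.5, 8.52, 6.90 and 3.24 TPM, and Tap2 of 8.13, 6.29, 3.58 and 1.80 TPM. B2m, the light chain of MHC class I, had means of 455, 373, 372 and 291 TPM and did not pass in any comparison at the deposited scale. Of 9 interferon factors, 4, 7, 6 and 6 were lower in the 4 comparisons, against the same shares of all genes. Irf1 had means of 13.8, 11.8, 8.88 and 6.36 TPM in the 4 groups. Ifngr2 had means of 11.6, 12.3, 10.7 and 10.1 TPM and was not called at the deposited scale. With median-of-ratios scaling 6 were lower and 3 higher in each comparison of genotypes. Among all genes 27.8% and 29.8% were called in these directions on the ground and 31.2% and 35.2% in flight. In each comparison of flight 1 was lower and 2 were higher. Among all genes these shares were 15.9% and 17.4% in WT mice and 21.6% and 18.1% in KO mice. The immunoproteasome is abundant in leukocytes, so the levels of lineage markers are given here. The 11 B lineage markers summed to 490 to 1094 TPM in GC-WT mice, 248 to 821 TPM in FL-WT mice, 307 to 494 TPM in GC-KO mice and 174 to 286 TPM in FL-KO mice. The 9 monocyte and macrophage markers summed to 464 to 635 TPM in GC-WT mice, 415 to 757 TPM in FL-WT mice, 345 to 578 TPM in GC-KO mice and 311 to 447 TPM in FL-KO mice. The 8 T and NK cell markers summed to 46.1 to 71.9 TPM, 37.6 to 80.02 TPM, 34.8 to 59.9 TPM and 34.1 to 51.5 TPM in the 4 groups. In KO mice on the ground 7 of 11 B lineage, 5 of 9 monocyte and 2 of 8 T and NK markers were called lower, against 42.9% of all genes. In flight 7, 6 and 5 were, against 47.2%. The 12 neutrophil markers summed to 31728 to 57331 TPM, 45942 to 64591 TPM, 42844 to 65726 TPM and 50835 to 68256 TPM in the 4 groups. The means of this sum were 42611, 58566, 51024 and 56962 TPM. The mean of KO mice was thus higher on the ground and slightly lower in flight. Of the 12 neutrophil markers 5 were called lower and 2 higher in KO mice on the ground, against 42.9% and 3.13% of all genes. In flight 8 were lower, against 47.2%. S100a8 and S100a9 held most of these sums. Their means were 15105 and 16573 TPM in GC-WT mice and 23347 and 25261 TPM in FL-KO mice. S100a8, S100a9 and Camp had higher means in KO than in WT mice of the same arm. Each other neutrophil marker had a lower mean there. None of the lineage markers had a group mean of 0, and their part in the levels of Psmb8, Psmb9 and Psmb10 was not tested.

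In the 19S particle, the share of genes called lower was below that of all genes after flight and above it in KO mice. Of its 17 tested genes, 3 were lower after flight in WT mice, 8 after flight in KO mice, 10 in KO mice on the ground and 13 in KO mice in flight, and none was higher at the deposited scale, where 39.0%, 53.1%, 42.9% and 47.2% of all genes were lower. The median changes of the 17 were -0.24, -0.29, -0.30 and -0.44, against -0.24, -0.29, -0.22 and -0.25 for all genes. With median-of-ratios scaling 0, 2, 4 and 4 were lower, against 15.9%, 21.6%, 27.8% and 31.2% of all genes, and 7, 5, 5 and 4 were higher, against 17.4%, 18.1%, 29.8% and 35.2%. The fold changes of the 43 members are plotted by class.

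**Figure D3:**
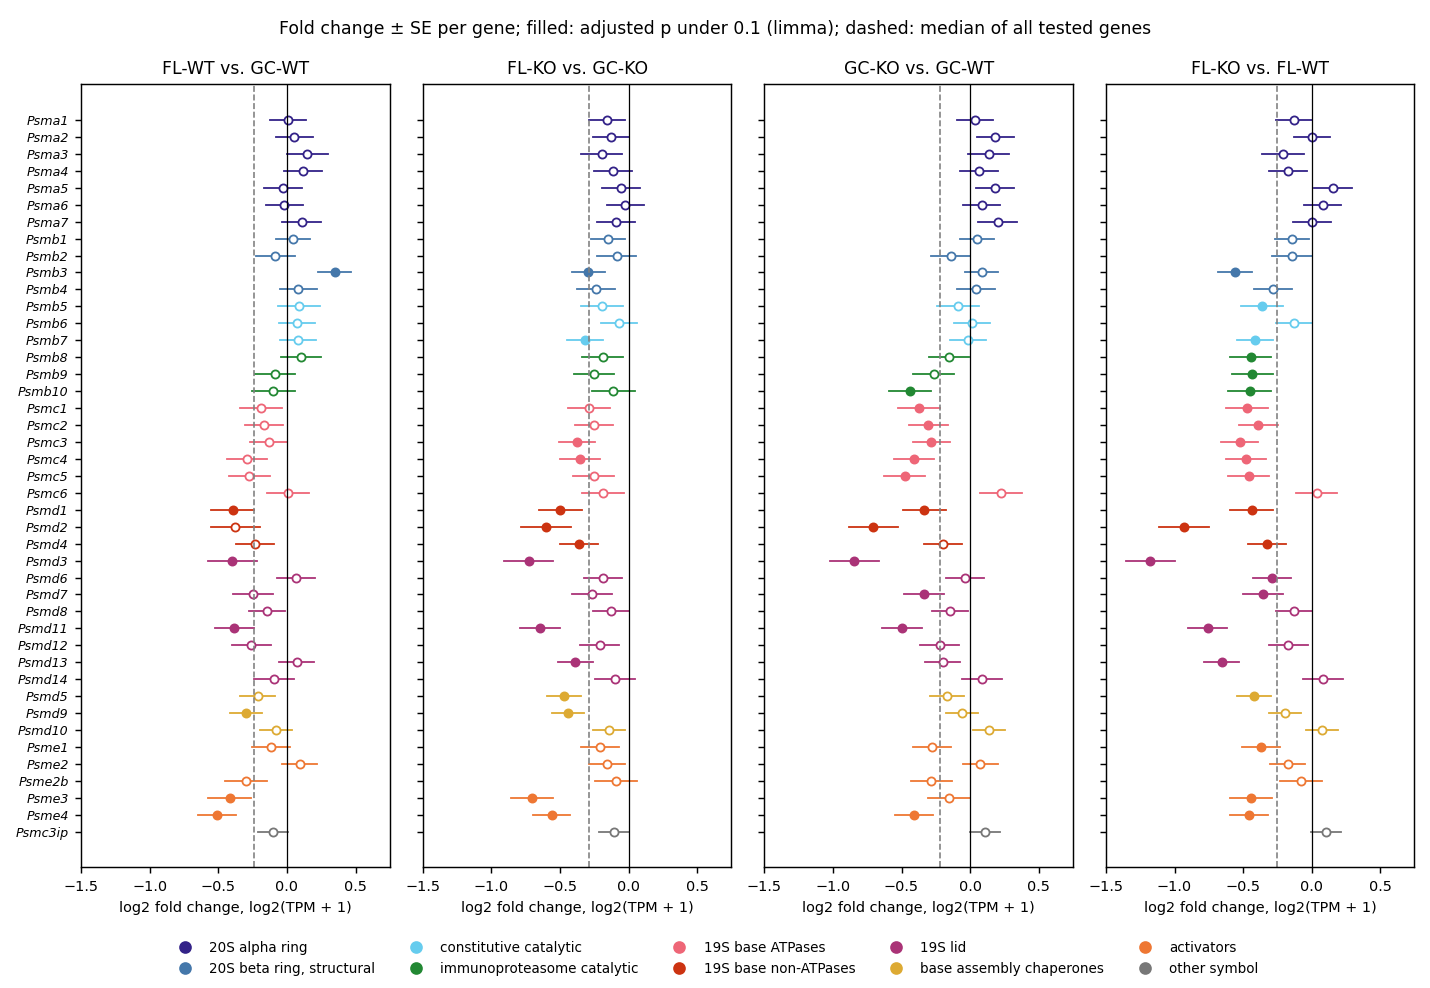
Log2 fold change of each tested member in the 4 comparisons, on the log2(TPM + 1) scale with lines for the SE, filled points for an adjusted p under 0.1 in limma and a dashed line at the median of all tested genes. The genes of the 20S core lie mostly to the right of the dashed line, and Psmd3 reaches -1.18 in KO mice in flight.

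In the base, the ring of ATPases pulls substrates into the core. Of the 6 ATPase genes, 0, 2, 5 and 5 were lower in the 4 comparisons at the deposited scale. The shares of all genes called lower there were 39.0%, 53.1%, 42.9% and 47.2%. Rescaling by median of ratios left 0, 0, 1 and 0 ATPase genes lower and 3, 1, 1 and 1 higher. Without the GC and length trend, 0, 0, 3 and 2 ATPase genes were lower and 1, 0, 0 and 0 higher. At the deposited scale, the 5 lower in KO mice on the ground changed by -0.28 for Psmc3 to -0.48 for Psmc5. Psmc6 was not called at that scale, with changes of 0.23 in KO mice on the ground and 0.04 in KO mice in flight. Psmc5 lay at 13.2, 13.9 and 17.5 TPM in GC-WT mice and at 8.17, 9.68 and 12.8 TPM in GC-KO mice, so that every GC-KO mouse was below every GC-WT mouse. It was called lower in KO mice on the ground under all 5 scalings. Psmc3 lay at 27.1, 32.2 and 33.0 TPM in GC-WT mice, 20.9, 26.0 and 38.2 TPM in FL-WT mice, 21.03, 24.5 and 29.9 TPM in GC-KO mice and 14.1, 19.6 and 23.5 TPM in FL-KO mice. It was called lower after flight in KO mice, in KO mice on the ground and in KO mice in flight at the deposited scale. The call on the ground was lost when GC-KO mouse 1, 2, 4 or 9 or GC-WT mouse 5, 6, 7, 8 or 10 was left out, with changes of -0.30 to -0.23. Its change also turned to 0.04 and 0.06 in the first 2 of these with median-of-ratios scaling. Psmc6 lay at 10.3, 14.0 and 19.9 TPM in GC-WT mice, 9.71, 14.2 and 21.5 TPM in FL-WT mice, 14.6, 17.3 and 19.99 TPM in GC-KO mice and 11.8, 15.1 and 17.7 TPM in FL-KO mice, with all groups overlapping.

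Psmd2 and Psmd1 encode the large scaffold proteins of the base, and Psmd4 a ubiquitin receptor. Psmd2 lay at 14.6, 16.5 and 21.5 TPM in GC-WT mice, 9.06, 11.8 and 21.6 TPM in FL-WT mice, 7.48, 10 and 14.5 TPM in GC-KO mice and 4.98, 6.18 and 7.91 TPM in FL-KO mice. The groups of KO mice lay below those of WT mice on the ground and again in flight, with no overlap. On the ground the gap was narrow, with 14.53 TPM in the highest GC-KO mouse and 14.58 TPM in the lowest GC-WT mouse. The share of all genes without overlap between groups was not counted, here or for other members. Psmd2 fell by 0.70 on the log2 scale in KO mice on the ground (SE 0.18, limma adjusted p = 0.00329) and by 0.93 in KO mice in flight (SE 0.18, adjusted p = 0.000144). Psmd1 was lower in all 4 comparisons at the deposited scale, by -0.40 after flight in WT mice, -0.50 after flight in KO mice, -0.33 in KO mice on the ground and -0.44 in KO mice in flight. It was called lower in 2 of the 5 scalings in each comparison. Over the 5 scalings its changes reached up to -0.08, -0.09, 0.009 and 0.02 in the 4 comparisons. Psmd4 lay at 26.3, 33.0 and 37.1 TPM in GC-WT mice, 20.1, 23.8 and 36.6 TPM in FL-WT mice, 23.2, 26.8 and 31.6 TPM in GC-KO mice and 16.1, 21.3 and 24.8 TPM in FL-KO mice. The change of Psmd4 was -0.32 in KO mice in flight (limma adjusted p = 0.0585) and turned to 0.10 with median-of-ratios scaling, and the call was lost without FL-KO mouse 2 or FL-WT mouse 7 or 8, with changes of -0.25 to -0.24. Adrm1, a further ubiquitin receptor of the base without a Psm symbol, had means of 16.1, 12.3, 9.22 and 5.44 TPM in the 4 groups and was lower in all 4 comparisons, with a log2 fold change of -1.02 in KO mice in flight. Sem1, a small 19S subunit without a Psm symbol, had means of 28.6, 35.7, 31.7 and 33.5 TPM and was higher after flight in WT mice with a change of 0.33.

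The lid removes the ubiquitin chain. Psmd14, the deubiquitinase of the lid, lay at 15.5, 19.6 and 24.7 TPM in GC-WT mice, 12.9, 19.1 and 23.1 TPM in FL-WT mice, 17.3, 20.97 and 25.7 TPM in GC-KO mice and 14.6, 19.2 and 24.3 TPM in FL-KO mice, with changes of -0.10 to 0.08. Psmd8, which joins the lid to the base, lay at 28.0, 35.7 and 40.1 TPM in GC-WT mice, 23.6, 32.2 and 39.5 TPM in FL-WT mice, 27.1, 31.0 and 38.2 TPM in GC-KO mice and 22.2, 29.2 and 33.2 TPM in FL-KO mice, with changes of -0.15 to -0.13. Neither was called at the deposited scale. Psmd3 (chromosome 11 of GRCm38, 98682554 to 98695979), a structural lid subunit, had the largest fall of the 43 tested members after flight in KO mice and in both comparisons of genotypes. It lay at 11.3, 14.6 and 17.5 TPM in GC-WT mice, 7.33, 9.28 and 17.9 TPM in FL-WT mice, 5.51, 7.06 and 11.1 TPM in GC-KO mice and 3.06, 3.995 and 5.81 TPM in FL-KO mice. The KO and WT groups did not overlap on the ground or in flight, and the highest FL-KO mouse lay just above the lowest GC-KO mouse. Its log2 fold changes were -0.40 after flight in WT mice, -0.73 after flight in KO mice, -0.84 in KO mice on the ground and -1.18 in KO mice in flight (SE 0.18 each, limma adjusted p = 0.0914, 0.00303, 0.000879 and 9.74e-06). Its call after flight in WT mice was lost when FL-WT mouse 3, 5, 6 or 10 or GC-WT mouse 5, 6, 7 or 8 was left out, with changes of -0.43 to -0.30.

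Psmd11, which ties the lid to the ATPase ring, lay at 16.4, 18.1 and 23.0 TPM in GC-WT mice, 10.1, 13.4 and 20.8 TPM in FL-WT mice, 10.7, 12.6 and 16.8 TPM in GC-KO mice and 6.77, 7.68 and 9.68 TPM in FL-KO mice. Every FL-KO mouse was below every mouse of the other 3 groups. It was lower by -0.38, -0.64, -0.50 and -0.76 in the 4 comparisons. Psmd13 lay at 14.3, 16.7 and 19.8 TPM in GC-WT mice, 13.7, 18.2 and 22.1 TPM in FL-WT mice, 12.2, 14.1 and 18.7 TPM in GC-KO mice and 8.24, 11.8 and 12.01 TPM in FL-KO mice, and its values per mouse, like those of Psmc5 and Psmd11, were chosen for display after they were seen. Its change was -0.66 in KO mice in flight and 0.07 after flight in WT mice. Under all 5 scalings, Psmd2, Psmd3, Psmd11 and Psmd13 were called lower in KO mice in flight, and Psmc5, Psmd2, Psmd3 and Psmd11 in KO mice on the ground. After flight in KO mice these were Psmd3, Psmd11, Psme3 and Psme4, and after flight in WT mice Psme4 alone. The share of all genes called under all 5 scalings was not counted, so these calls have no background to be set against. With the GC and length trend removed alone, 14.9%, 15.5%, 22.0% and 23.8% of all genes were lower in the 4 comparisons.

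A ratio within a library is free of a factor common to it, though not of a trend in length or GC content. The summed TPM of the 17 genes of the 19S particle was divided by that of the 15 genes of the 20S core, Psma8 among them. The ratio was 0.618 ± 0.0726 (SD, n = 6) in GC-WT mice, 0.499 ± 0.0386 in FL-WT mice, 0.485 ± 0.0403 in GC-KO mice and 0.433 ± 0.0211 in FL-KO mice. In GC-WT mice it ranged from 0.483 to 0.672, and 5 of the 6 mice lay at 0.587 or above. GC-WT mouse 10 had the value of 0.483 and lay within the range of the FL-WT mice, which was 0.451 to 0.561. GC-KO mice ranged from 0.434 to 0.522 and FL-KO mice from 0.411 to 0.470, so that FL-KO mice lay below all GC-WT mice and overlapped with the other 2 groups. Without Psmd2, Psmd3 and Psmd11 the means were 0.520, 0.431, 0.429 and 0.395 in the 4 groups. The order of the group means was the same without these 3 genes, and no test was made of the sums.

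**Figure D4:**
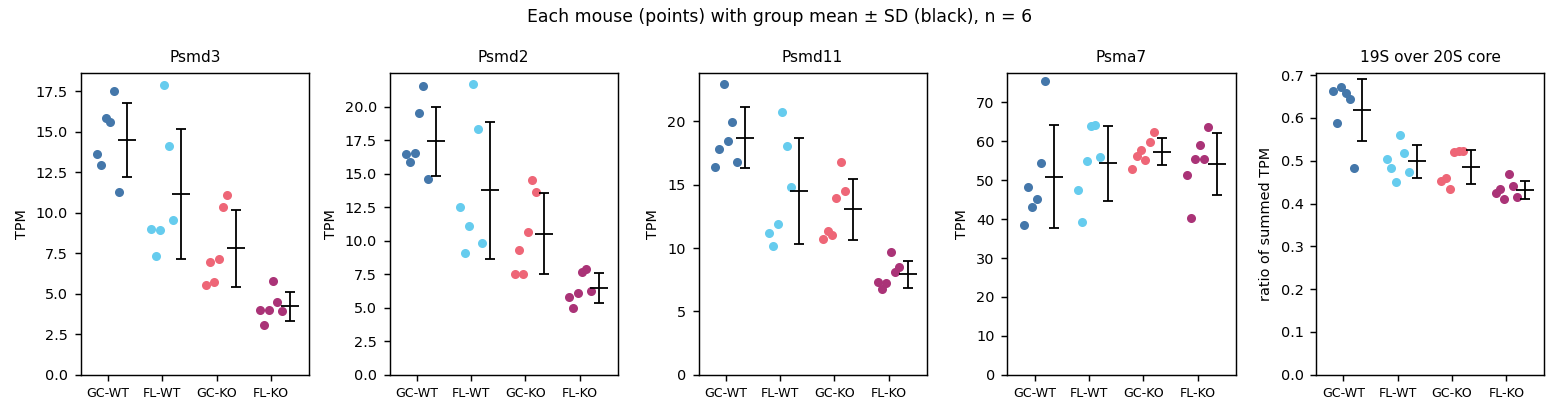
TPM of Psmd3, Psmd2 and Psmd11 of the 19S particle and Psma7 of the 20S core, and the ratio of summed TPM of 19S over 20S core genes, in each mouse (points) with the group mean ± SD (black, n = 6). The 3 genes of the 19S particle shown have their lowest means in the FL-KO group, and Psma7 does not. The particles do not divide in this way. Psmb3 and Psmb7 of the core, among others, also have their lowest means in the FL-KO group. Psmc6 and Psmd14 of the 19S particle do not. The ratio has means of 0.618, 0.499, 0.485 and 0.433.

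The transcripts of the 2 particles differ in length, and length moved with the fold changes. The median length of the longest transcript was 1220 nt for the tested 20S core genes, 1983 nt for the 19S genes, 1883 nt for all 43 tested members and 2990.5 nt for all tested genes. Across the 43 members, Spearman's rho between the log2 fold change and this length was -0.45 after flight in WT mice, -0.70 after flight in KO mice, -0.35 in KO mice on the ground and -0.46 in KO mice in flight. These are descriptions across genes of the same libraries, and the genes are no independent replicates. After removal of the GC and length trend, the median changes of the 20S core and the 19S genes were 0.27 and 0.01 after flight in WT mice, 0.10 and -0.0016 after flight in KO mice, 0.19 and -0.10 in KO mice on the ground and 0.05 and -0.13 in KO mice in flight. The part of length in the difference between the particles was not tested.

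**Figure D5:**
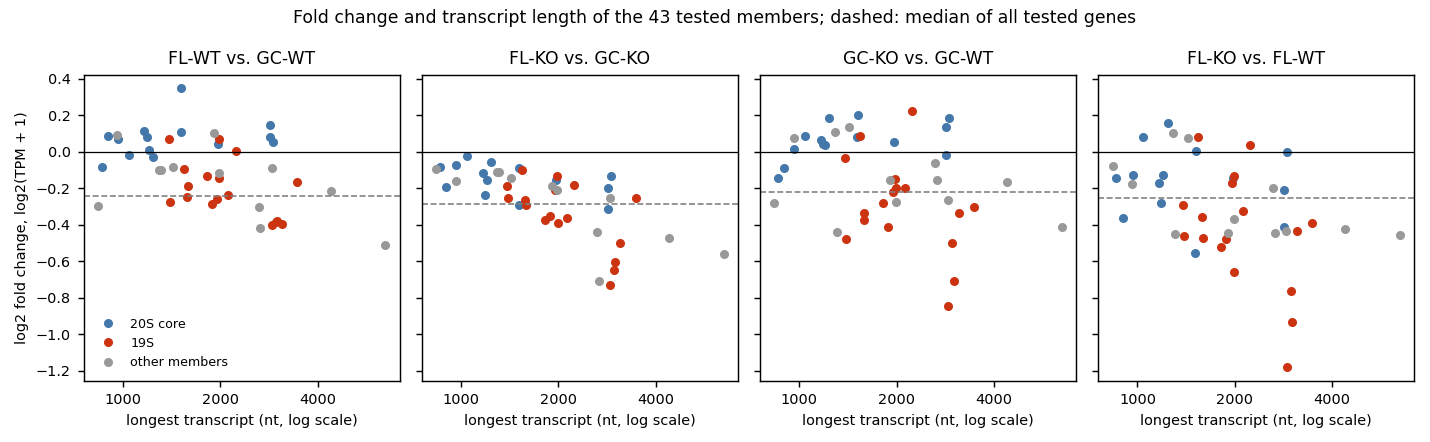
Log2 fold change of the 43 tested members in the 4 comparisons against the length of the longest transcript in nt on a log axis, with 20S core genes in blue, 19S genes in red and other members in grey, and a dashed line at the median of all tested genes. The 20S core genes have a median length of 1220 nt and the 19S genes of 1983 nt, and rho over the 43 members lies between -0.70 and -0.35.

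Among the activators, Psme3 and Psme4 were called lower after flight in both genotypes at the deposited scale. Psme3 encodes the nuclear activator PA28 gamma and Psme4 the activator PA200. Psme3 lay at 45.1, 70.6 and 93.8 TPM in GC-WT mice, 36.9, 54.2 and 62.8 TPM in FL-WT mice, 50.6, 60.2 and 84.7 TPM in GC-KO mice and 31.1, 38.5 and 43.6 TPM in FL-KO mice. The FL-KO mice were all below the GC-KO mice, whereas FL-WT and GC-WT mice overlapped. Psme3 fell by 0.42 on the log2 scale after flight in WT mice (SE 0.15, limma adjusted p = 0.0443, lost without FL-WT mouse 5 or 6 or GC-WT mouse 6, with changes of -0.39 to -0.32) and by 0.71 after flight in KO mice (SE 0.15, adjusted p = 0.00129). Psme4 lay at 7.31, 7.86 and 9.20 TPM in GC-WT mice, 3.81, 5.81 and 7.68 TPM in FL-WT mice, 4.91, 5.70 and 8.11 TPM in GC-KO mice and 2.90, 3.76 and 4.5 TPM in FL-KO mice. Its changes were -0.51 after flight in WT mice, -0.56 after flight in KO mice, -0.41 in KO mice on the ground and -0.46 in KO mice in flight, and it was called in each. With 6491 nt, Psme4 has the longest transcript of the 43 members. Psme1 and Psme2, which form the interferon-induced activator PA28 alpha-beta, had means of 39.4 and 38.7 TPM in GC-WT mice, and Psme1 was called lower in KO mice in flight with a change of -0.37. That call of Psme1 turned with scaling, since the gene was also called higher in 1 of the 5 scalings. Psme2b, a near copy of Psme2 that may share its reads, had means of 4.42 to 5.98 TPM and was not called at the deposited scale. Over the 5 scalings it was called lower in 1, 0, 1 and 0 and higher in 0, 2, 0 and 2 in the 4 comparisons. Erythroid and megakaryocyte markers moved with flight beside these genes. Of 12 erythroid markers 9 and 10 were lower after flight in WT and KO mice, against 39.0% and 53.1% of all genes. Their median changes were -0.96 and -1.16, and -0.62 and -0.74 with median-of-ratios scaling. The erythroid sums ranged from 29554 to 63998 TPM, 44003 to 65295 TPM, 53724 to 78252 TPM and 45833 to 68272 TPM in the 4 groups. Hba-a1 and Hbb-bt, with means of 41287 and 11263 TPM in GC-WT mice, held most of these sums. Of 5 megakaryocyte markers 4 and 5 were lower after flight in WT and KO mice, against the same 39.0% and 53.1% of all genes. The median changes of these markers were -0.75 and -0.93. Their sums were 91.2 to 293 TPM, 46.9 to 158 TPM, 97.1 to 181 TPM and 31.6 to 136 TPM in the 4 groups. The part of erythroid and megakaryocyte cells in the flight changes of the members was not tested.

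Of the 3 chaperones of base assembly, Psmd9 was lower after flight in WT mice and Psmd5 and Psmd9 after flight in KO mice, where they changed by -0.47 and -0.44. Psmd5 was also lower in KO mice in flight, with a change of -0.42. Psmd10 lay at 5.72, 6.46 and 8.72 TPM in GC-WT mice, 4.35, 6.54 and 7.63 TPM in FL-WT mice, 6.56, 7.24 and 9.22 TPM in GC-KO mice and 5.36, 6.82 and 7.44 TPM in FL-KO mice. It was not called at the deposited scale, but was called higher in 2, 2, 2 and 3 of the 5 scalings in the 4 comparisons. Of 5 further assembly genes, Pomp, the maturation factor of the core, was lower in KO mice in flight by -0.45. Psmg2 was lower after flight in KO mice by -0.32, and no other call was made at the deposited scale. Of all genes 47.2% and 53.1% were lower in these comparisons. With median-of-ratios scaling 0 of the 5 were lower and 2 were higher in each comparison, against 17.4%, 18.1%, 29.8% and 35.2% of all genes higher. Psmc3ip lay at 1.56, 2.08 and 2.67 TPM in GC-WT mice, 1.39, 2.01 and 2.23 TPM in FL-WT mice, 1.98, 2.38 and 2.56 TPM in GC-KO mice and 1.65, 2.06 and 2.52 TPM in FL-KO mice. It was not called at the deposited scale, but was called higher in 0, 1, 3 and 3 of the 5 scalings in the 4 comparisons.

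Genes that feed substrates to the proteasome or regulate it were examined as well. Of 18 such genes, 12, 17, 9 and 11 were lower in the 4 comparisons, against 39.0%, 53.1%, 42.9% and 47.2% of all genes, and none was higher. With median-of-ratios scaling, 5, 8, 7 and 7 were lower and 1, 1, 7 and 4 were higher. Nfe2l1, which encodes the factor that restores proteasome genes when the proteasome is blocked, had means of 8.26, 6.02, 4.74 and 2.602 TPM in the 4 groups and was lower in all 4 comparisons, by -0.93 in KO mice in flight. Ddi2, the protease that activates its product, had means of 10.2, 6.74, 5.56 and 3.10 TPM. Vcp, the ATPase that extracts ubiquitin-tagged proteins from membranes and complexes, had means of 32.3, 26.2, 17.5 and 9.18 TPM and changed by -0.88 in KO mice on the ground and -1.36 in KO mice in flight. Psmf1, an inhibitor of the core, had means of 16.6, 9.62, 12.1 and 6.73 TPM and was lower in all 4 comparisons. Of 6 genes of ubiquitin and its activating enzymes, 1, 3, 2 and 2 were lower in the 4 comparisons, and 1 was higher in KO mice on the ground. Uba1, the main activating enzyme of ubiquitin, had means of 29.9, 24.5, 13.6 and 6.46 TPM and changed by -1.70 in KO mice in flight. Ubb, a polyubiquitin gene, had means of 713, 638, 846 and 737 TPM and was not called at the deposited scale. Rps27a, which encodes ubiquitin fused to a ribosomal protein, was higher in KO mice on the ground with a change of 0.48.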

How the data were processed

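The authors mapped reads of 24 libraries to mm10 (GRCm38) with STAR 2.6.1 and deposited TPM estimated with RSEM 1.3.1, per the labels and their methods. Libraries were made from 200 ng of RNA with a directional kit and sequenced on the DNBSEQ-G400. Read counts and depth are unknown, so no counting error is given. The 24 columns were assigned by their labels, and each sums to 999999.5 to 1000001.1. Genes were named by GENCODE M21, and 54723 of 54752 IDs matched without their version.

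Genes above 1 TPM in at least 1 library entered limma 3.58.1 (R 4.3.3) as log2(TPM + 1), fitted to the 4 group means of all 24 libraries, and p-values were adjusted by Benjamini-Hochberg. Calls had an adjusted p under 0.1, and DEGs also a fold change of at least 2. Adding 1 makes changes of low genes smaller than their ratios. Ratios were tested with exact two-sided permutation tests. Values per mouse were given for the catalytic genes, the highest gene of each class, Nfe2l2 and the 2 members with the largest change in each direction per comparison among those with a mean of at least 5 TPM. Gene lists were fixed for their function, and Paaf1 had no match. The members and lists were chosen with earlier results of these data known.

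Alternatives were median-of-ratios scaling, quantile normalization, leaving out 5 small RNAs, a pseudocount of 0.1, a stricter filter (6 libraries above 1 TPM) or none, removal of the GC and length trend, a mean-expression trend, the compared groups only, an adjusted p under 0.05, a block for the mouse number, and leaving out 1 library at a time. The 5 scalings named in the text are the deposited TPM, median-of-ratios, quantile, without the small RNAs and without the GC and length trend. The steps were tested on simulated data. Other steps used Python 3.11.15, pandas 2.3.3, scipy 1.17.1 and matplotlib 3.10.9. Promoters were taken from RefSeq (GRCm38.p6).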

Additional observations from a re-analysis of the deposited data

Results flagged for a closer look

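In the 88 groups of 6 mice in which single members were examined, 4 held a value whose distance from the nearest other mouse exceeded 0.625 of the range of the group, and chance gives about 1 in 20. All 4 were in the library of FL-KO mouse 2, which was the lowest of its group. Psmb3 stood at 47.4 TPM there, and the next mouse at 65.5 TPM. Psmb5 stood at 20.6 TPM beside 29.9 TPM, Psmb6 at 31.1 TPM beside 41.8 TPM and Psmb10 at 7.51 TPM beside 9.42 TPM. The 5 small RNAs held 59.3% of TPM in this library and 46.1% to 52.4% in the other FL-KO libraries, and their part in these values was not tested. Leaving out single libraries of the 2 groups, this one among them, kept the change of Psmb3 in KO mice in flight between -0.62 and -0.47, and its adjusted p in limma stayed under 0.1.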

How the results depend on the processing

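Counts of members called lower after flight in WT mice were 6 as reported, 1 with median-of-ratios scaling, 2 with quantile normalization, 14 without 5 small RNAs, 1 without the GC and length trend, 1 with the compared groups only and 3 at an adjusted p under 0.05. After flight in KO mice they were 14 as reported and 4, 4, 9 and 4 under the first 4 of these settings. In KO mice on the ground they were 12 as reported, 4, 4, 23 and 7 under those 4, 7 without a filter and 7 at an adjusted p under 0.05. In KO mice in flight they were 23 as reported, 4 with median-of-ratios scaling, 6 with quantile normalization and 9 without the GC and length trend. Counts called higher with median-of-ratios scaling, quantile normalization and without the GC and length trend were 25, 18 and 17 after flight in WT mice, 20, 19 and 6 after flight in KO mice, 23, 22 and 12 in KO mice on the ground and 19, 18 and 7 in KO mice in flight, the last being 2 without 5 small RNAs. Member DEGs in KO mice in flight numbered 1 as reported, 2 with a pseudocount of 0.1, which added Psmd2, and 0 under these 3 settings. An interaction was called for 1 member, Psmb3, without the GC and length trend and for 0 otherwise. The median of the members relative to all genes was 0.15, 0.079, 0.074 and -0.074 in the 4 comparisons, and -0.042, -0.14, -0.13 and -0.28 without a filter, where genes near 0 enter the median of all genes. It was 0.21 after flight in KO mice with a pseudocount of 0.1 or median-of-ratios scaling and 0.058 in KO mice in flight with median-of-ratios scaling. Where no cause is given, the cause was not tested.

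Among the members singled out by rule, some that were called at the deposited scale changed sign, at log2 values near 0, and other members did so too, such as Psmc2 in KO mice on the ground at 0.031 with median-of-ratios scaling. With median-of-ratios scaling these were Psmb3 at 0.14, Psmb7 at 0.11, Psmc3 at 0.044 and Psmd4 at 0.058 after flight in KO mice, Psmc3 at 0.063 in KO mice on the ground and Psmb5 at 0.068, Psmb7 at 0.018 and Psmd4 at 0.10 in KO mice in flight. Without the GC and length trend they were Psmc3 at 0.0076 and Psmd4 at 0.0035 after flight in KO mice, Psmc3 at 0.082 in KO mice on the ground and Psmb5 at 0.068, Psmb9 at 0.12, Psmb10 at 0.046 and Psmd4 at 0.12 in KO mice in flight. With quantile normalization they were Psmb3 at 0.031 and Psmb7 at 0.015 after flight in KO mice and Psmb9 at 0.017 and Psmd4 at 0.073 in KO mice in flight. The difference of Psmb8/Psmb5 after flight in KO mice was 0.0028 on the log2(TPM + 1) scale.

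With each library left out in turn, members called lower after flight in WT mice numbered 1 (without GC-WT mouse 6) to 16 (without FL-WT mouse 7). In KO mice on the ground from 7 members, when GC-WT mouse 8 was left out, up to 15, when GC-KO mouse 11 was, were lower and 0 to 3 (without GC-WT mouse 10) higher. Member DEGs in KO mice in flight numbered 1 to 2 (without FL-WT mouse 5). Log2 differences of ratios ranged from -0.018 to 0.069 for Psmb8/Psmb5 after flight in WT mice and -0.023 to 0.044 after flight in KO mice. They ranged from -0.25 to -0.17 for Psmb9/Psmb6 after flight in KO mice, -0.36 to -0.25 in KO mice on the ground and -0.38 to -0.29 in KO mice in flight. For Psmb10/Psmb7 they ranged from -0.53 to -0.41 in KO mice on the ground and -0.12 to 0.012 (without FL-WT mouse 7) in KO mice in flight.

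With the mouse number as a replicate block, 13 members were lower after flight in WT mice in place of 6. Correlations of deviations between the 12 pairs of mice with the same number ran from -0.026 to 0.27, 7 exceeded 0.1, and 3 were the best of the number, so the numbers were not taken as pairs. The number of reads is unknown, so no limit of depth can be stated.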
